A study of Mus musculus with 24 samples.

Results

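Uninjured dorsal root ganglia of DBA mice were compared with uninjured ganglia of C57 mice by RNA sequencing. The groups were taken from the sample titles, 4 libraries labelled DBA naive and 4 labelled C57 naive, which are 8 of the 24 libraries of the series. Both groups are whole dorsal root ganglion, from mice under standard housing that carry no listed allele or agent, and they differ in the strain label alone, DBA or C57, with no substrain, age or sex given. The titles and treatment labels call them naive, while the protocol text speaks of sham injury as the counterpart of sciatic nerve crush. The other 16 libraries are naive CAST ganglia and ganglia of the 3 strains taken 5 days after the crush, 4 of each. The injured DBA and injured C57 libraries were used to see whether a strain difference of naive ganglia recurred in other libraries, fitted in the same model. The replicates are described as biological, without saying how many animals gave each library.

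In a dorsal root ganglion lie the somata of primary afferent neurons, whose axons bring touch, limb position, heat, itch and pain to the spinal cord. Satellite glia wrap each cell body, myelinating and non-myelinating Schwann cells wrap the axons, and macrophages, vessels and connective tissue fill the space between. Inbred strains are fixed for different alleles over much of the genome, including coding changes, deleted or duplicated genes and regulatory variants, so that a gene's transcript level can differ between strains in unchallenged tissue. Whole ganglia were sequenced, so fewer cells of a type and less RNA per cell cannot be told apart in any of the values below.

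Each library's file gave FPKM, fragment counts scaled to the library total and to gene length, where the length is the whole gene span including introns, so levels are not compared between genes. Converted back to reads, the naive DBA libraries held 85.57 M to 113.82 M reads in all and the naive C57 libraries 96.04 M to 107.61 M (M, 1000000). In a principal component analysis of the 8 libraries the first component, with 51.3% of the variance, placed the DBA libraries at 13.46 to 17.38 and the C57 libraries at -17.14 to -11.5. The second, with 18.6%, set naive C57 replicate 1 apart, at -19.26. The summed level of 15 pan-neuronal genes was 2143 to 2357 FPKM in naive DBA and 1962 to 2086 FPKM in naive C57 ganglia. Their mean log2(FPKM + 1) overlapped, at 4.594 to 4.662 in naive DBA and 4.593 to 4.654 in naive C57 ganglia. The sum weighs most the neurofilament genes, which are abundant and the only 3 members called higher. That of 8 spinal cord and brain markers was 1.44 to 1.629 FPKM in naive DBA and 1.108 to 1.211 FPKM in naive C57 ganglia, and Cspg5, a neural proteoglycan gene, was the only one called, higher in DBA, with 2 calls, 1 of them lower, without naive DBA replicate 1, without naive C57 replicate 1 or with upper-quartile scaling. The same markers gave 3 calls, all higher, with a pseudocount of 0.1, with the 8 naive libraries fitted alone or on log2(CPM + 0.5), and 4 with voom. Skeletal muscle RNA was uneven: 14 muscle markers summed to 52.84 FPKM in naive DBA replicate 3, and the lowest DBA sum was 2.624, against 1.979 to 5.271 FPKM in naive C57 ganglia. Acta1, skeletal muscle actin, had 3.75, 0.458, 29.1 and 1.64 FPKM in DBA replicates 1 to 4, and 0.813, 1.67, 0.124 and 1.7 FPKM in C57 replicates 1 to 4. Per-library values below follow the same order, replicate 1 to 4, and a value with ± is the mean FPKM with its SD over 4 libraries.

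The strain difference was broad and mostly small. A gene was called when its adjusted p was under 0.05 in limma's moderated test on log2(FPKM + 1), with Benjamini-Hochberg adjustment over all 27046 genes tested. Of these, 5769 genes (21.3%) were called, 3007 (11.1%) higher and 2762 (10.2%) lower in naive DBA than in naive C57 ganglia. The median log2 difference over all tested genes was 0.0004, with quartiles of -0.027 and 0.031. The 4 DBA libraries lay wholly above or wholly below the 4 C57 libraries for 6184 genes (22.9%), and 4841 genes were both called and without overlap. Of these 4841 genes, 2138 differed at least 1.5-fold in mean FPKM, 1253 at least 2-fold and 477 at least 4-fold. Of the 1253 with at least a 2-fold difference, 777 were higher and 476 lower in DBA, and 691 are annotated as protein-coding. With a pseudocount of 1 FPKM, log2 differences of genes far below 1 FPKM are small even where the fold change is large, so the ratio of mean FPKM is given beside them.

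The injured libraries gave 8782 called genes (32.5%), 4918 higher and 3864 lower in injured DBA than in injured C57 ganglia. Of the genes called in naive ganglia, 3842 were called in the same direction in injured ganglia, which is 66.6% of the naive calls and 43.7% of the injured calls. Another 123 were called in opposite directions. Of the 1253 genes with at least a 2-fold difference, 992 had the same call in injured ganglia.

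**Figure D1:**
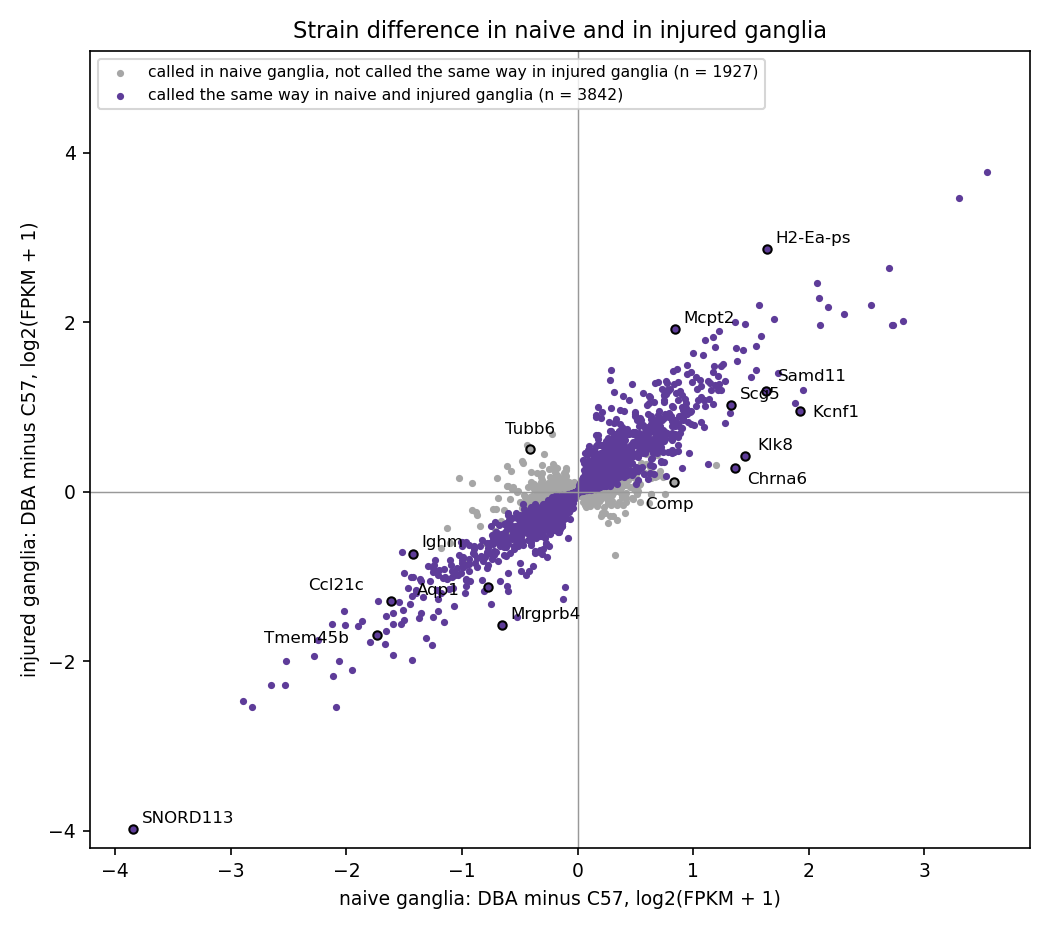
Each point is 1 of the 5769 genes called between naive DBA and naive C57 ganglia, with its DBA minus C57 difference on the log2(FPKM + 1) scale in naive ganglia on the x axis and in injured ganglia on the y axis. The 3842 genes called the same way in both lie in the upper right and lower left quadrants, and Tubb6 and Comp are among those that do not share the call.

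Among protein-coding genes the largest differences on the log2 scale, listed after their values were seen, include several neuronal genes. Kcnf1 (chr12:17172100-17176888; positions are those of mm10), a potassium channel subunit that modifies other channels, had 6.57, 6.86, 6.44 and 6.79 FPKM in naive DBA and 0.987, 0.891, 1.07 and 1.12 FPKM in naive C57 ganglia. All 4 DBA libraries were far above all 4 C57 libraries, a 6.56-fold difference of means (log2 1.93, SE 0.10, adjusted p = 1.1e-11). Samd11 (chr4:156246966-156255657), a SAM-domain protein gene, had 4.95, 5.19, 4.83 and 5.2 FPKM in naive DBA and 0.982, 0.942, 0.914 and 0.984 FPKM in naive C57 ganglia. Its groups did not overlap either, and the means differed 5.28-fold (log2 1.63, SE 0.032, adjusted p = 2.1e-18). Chrna6 (chr8:27403212-27413944), the alpha6 subunit of nicotinic acetylcholine receptors, had 11.3, 12.6, 12.5 and 12.8 FPKM in naive DBA and 4.54, 4.1, 3.94 and 4.14 FPKM in naive C57 ganglia, again without overlap (log2 1.36, SE 0.10, adjusted p = 2e-09). Scg5, which encodes the chaperone 7B2 of a prohormone convertase, averaged 4.56 ± 0.276 in naive DBA and 1.21 ± 0.119 in naive C57 ganglia (adjusted p = 7.6e-15).

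Other protein-coding genes higher in DBA were Mab21l1, a developmental gene, at 5.96 ± 0.392 in naive DBA and 2.2 ± 0.284 in naive C57 ganglia (adjusted p = 6.1e-11), and Crip1, a small LIM-domain protein, at 15.5 ± 1.02 in naive DBA and 5.63 ± 0.729 in naive C57 ganglia (adjusted p = 3.8e-08). Cst3, the protease inhibitor cystatin C, averaged 35 ± 2.45 in naive DBA and 18.9 ± 2.92 in naive C57 ganglia (adjusted p = 5e-08). Cntf, a neurotrophic factor made by Schwann cells, averaged 16.1 ± 1.99 in naive DBA and 8.46 ± 0.415 in naive C57 ganglia (adjusted p = 0.00039). None of these 4 genes had overlapping groups. The marker sums of Schwann cells, given further on, were also mostly higher in DBA, with ranges that overlapped, and their part in the Cntf difference was not tested.

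Lower in DBA was Tmem45b (chr9:31426196-31464462), a transmembrane protein gene, with 0.463, 0.495, 0.467 and 0.513 FPKM in naive DBA and 4.92, 3.57, 3.36 and 4.06 FPKM in naive C57 ganglia. The C57 mean was 8.21 times the DBA mean, with no overlap (log2 -1.74, SE 0.069, adjusted p = 1.5e-13). Chd9 (chr8:90828352-91054516), a chromatin remodeller, had 0.128, 0.128, 0.132 and 0.127 FPKM in naive DBA and 1.01, 1.12, 1.19 and 1.07 FPKM in naive C57 ganglia. Its C57 mean was 8.53 times the DBA mean, and naive CAST ganglia averaged 0.133 ± 0.00406 FPKM (SD, n = 4). Aqp1, a water channel of small-diameter sensory neurons, averaged 12.3 ± 0.265 in naive DBA and 21.8 ± 1.85 in naive C57 ganglia (adjusted p = 3.6e-09). Actb, cytoplasmic beta-actin and often a reference gene, averaged 26.6 ± 1.11 in naive DBA and 45.1 ± 3.93 in naive C57 ganglia (log2 -0.74, adjusted p = 2.4e-07).

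**Figure D2:**
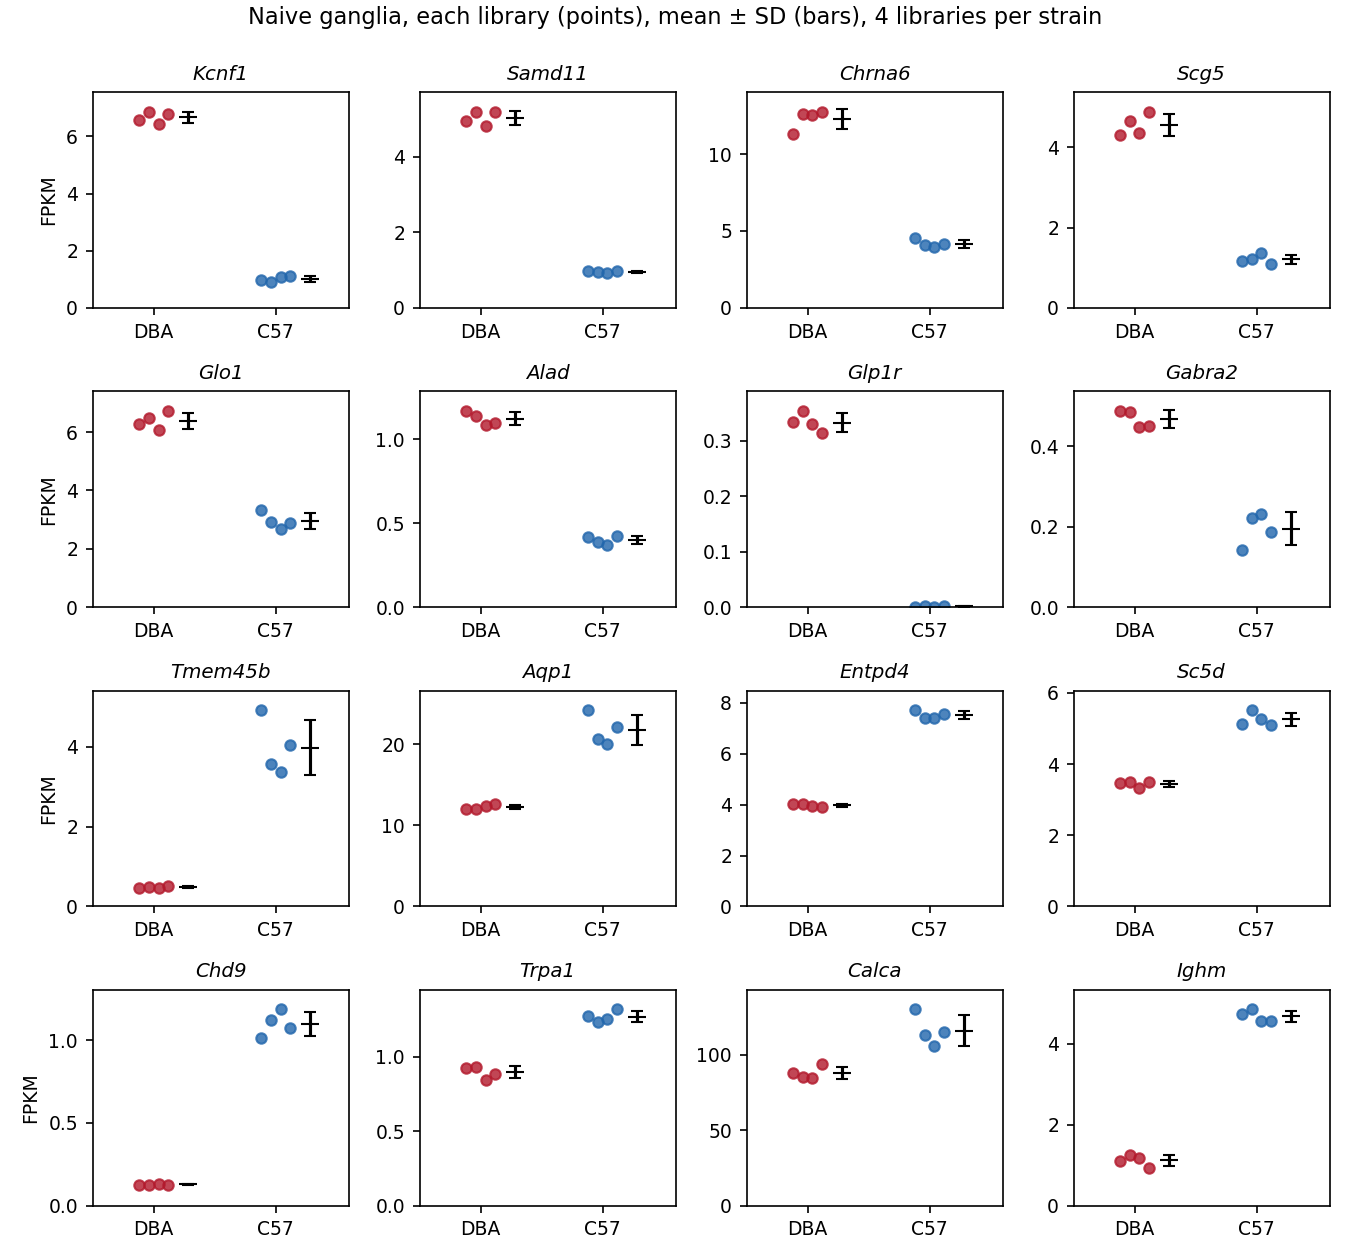
FPKM of 16 genes in each naive library (points, replicates 1 to 4 from left to right) with mean ± SD beside them, DBA on the left and C57 on the right of each panel. The first 8 genes are higher in all 4 DBA libraries and the last 8 lower in all 4, for example Kcnf1 at 6.44 FPKM or more in DBA and at most 1.12 FPKM in C57 ganglia.

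The largest fold differences were found where one strain gave almost no reads. Glp1r, the glucagon-like peptide-1 receptor, at chr17:30901817-30940791 (mm10), had 1145.2, 1458.8, 1099.1 and 1393.8 estimated reads in naive DBA and 3.4, 6.8, 4.5 and 10.1 in naive C57 libraries. Mean FPKM was 0.333 ± 0.0164 in naive DBA, 0.00231 ± 0.000605 in naive CAST and 0.00157 ± 0.000673 in naive C57 ganglia. Stab2, a scavenger receptor of sinusoidal endothelium, had 2093.2, 2599.3, 3208.4 and 3939.6 estimated reads in naive DBA and 77.4, 87.8, 88.9 and 102.7 in naive C57 libraries, a 33.7-fold difference of mean FPKM (adjusted p = 2.9e-08). Dnahc8, an axonemal dynein heavy chain, averaged 0.0644 ± 0.00373 in naive DBA and 0.00521 ± 0.000929 in naive C57 ganglia (FPKM), a 12.4-fold difference. EU599041, a long non-coding RNA near the kallikrein genes, averaged 2.89 ± 0.225 in naive DBA and 0.0537 ± 0.0267 in naive C57 ganglia (53.9-fold, adjusted p = 8.3e-19). Vmn1r179, a vomeronasal receptor gene, averaged 0.686 ± 0.143 in naive DBA and 0.00265 ± 0.0053 in naive C57 ganglia (FPKM), and 3 of its C57 libraries are listed at 0. The MHC pseudogenes Gm10499 and Gm17782 averaged 1.36 ± 0.0598 in naive DBA and 0.0439 ± 0.0179 in naive C57 ganglia for Gm10499, and 2.55 ± 0.218 in naive DBA and 0.199 ± 0.114 in naive C57 ganglia for Gm17782.

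The rule's largest falls by fold were Ighg2c, given with the immunoglobulins, Tmem45b and Chd9 above, and 5 genes of chromosome 4. Gm13152 averaged 0.056 ± 0.019 in naive DBA and 0.793 ± 0.102 in naive C57 ganglia. Gm12802 averaged 0.0239 ± 0.00693 in naive DBA and 0.594 ± 0.0594 in naive C57 ganglia (FPKM). Gm13301, Gm5859 and Gm17167 lie among the Ccl21 copies and averaged 0.167 ± 0.0852 in naive DBA and 3.7 ± 0.451 in naive C57 ganglia for the first, 0.159 ± 0.089 in naive DBA and 3.35 ± 0.685 in naive C57 ganglia for the second and 0.137 ± 0.0149 in naive DBA and 1.28 ± 0.366 in naive C57 ganglia for the last. The last 3 lie in a repeated region, where reads may be split between near-identical copies, so each single value is uncertain.

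On the log2(FPKM + 1) scale, with no such limit on reads, the rule picked mostly short non-coding genes and pseudogenes, whose FPKM is high for few reads. A small nucleolar RNA of the SNORD113 family on chromosome 12 had 2.49, 3.37, 4.0 and 3.01 FPKM in naive DBA and 52.9, 77, 55.3 and 54 FPKM in naive C57 ganglia (log2 -3.84, adjusted p = 1e-11), from a mean of 23 estimated reads in naive DBA and 434 in naive C57 libraries. Snord73a averaged 0.579 ± 0.194 in naive DBA and 10.1 ± 0.719 in naive C57 ganglia, from a mean of 4.0 estimated reads in naive DBA and 68.2 in naive C57 libraries. A SNORD58 copy averaged 7.57 ± 1.38 in naive DBA and 0.491 ± 0.347 in naive C57 ganglia, from a mean of 51.7 estimated reads in naive DBA and 3.5 in naive C57 libraries. SNORD74 and SNORD79, encoded in introns of the growth-arrest transcript Gas5, averaged 5.55 ± 1.14 in naive DBA and 26.2 ± 2.74 in naive C57 ganglia for SNORD74, and 6.48 ± 0.639 in naive DBA and 31.4 ± 3.04 in naive C57 ganglia for SNORD79. Gas5 itself averaged 0.51 ± 0.0358 in naive DBA and 0.676 ± 0.0544 in naive C57 ganglia (adjusted p = 0.00043). The processed pseudogenes Gm8724 and Gm13604 averaged 7.25 ± 1.28 in naive DBA and 0.268 ± 0.111 in naive C57 ganglia for Gm8724, and 9.18 ± 1.15 in naive DBA and 1.41 ± 0.208 in naive C57 ganglia for Gm13604. The antisense gene Gm11399 averaged 7.65 ± 0.834 in naive DBA and 1.02 ± 0.186 in naive C57 ganglia, which is uncertain because no source states whether the counting used strand. A U6 and a U1 entry on chromosome 3 both had 172, 190, 174 and 228 reads in naive DBA libraries, while a 5S rRNA entry and 2 microRNA entries on chromosome 8 all had 85, 157, 382 and 274, so that each set counts mostly the same reads. The 5S rRNA entry had 61, 5, 9 and 33 reads in naive C57 libraries, where 1 of the microRNA entries had 63 in replicate 1, without overlap but with a wide spread in both strains. The lincRNA AL627077.2 averaged 7.88 ± 0.357 in naive DBA and 0.982 ± 0.103 in naive C57 ganglia, and the rest of the 12 rises are a U6 copy and Rpl21-ps10. The rest of the 12 falls are a U6 copy, the microRNA entry AC073553.1 in the immunoglobulin region, Gm17081 among the Ccl21 copies, and 5 entries named Gm10590, Gm10594 and Gm10595, which have no position in the annotation used.

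Of 18 genes with variants described between C57BL/6J and DBA/2J stocks, 17 were tested and 15 were called, 6 higher and 9 lower in DBA, and 14 had the same call in injured ganglia. The list was assembled from known alleles with earlier results of these data in view, so its count is no independent evidence. Glo1 (chr17:30584936-30626871), glyoxalase 1, which lies in a segment duplicated in DBA/2J, had 6.27, 6.47, 6.09 and 6.73 FPKM in naive DBA and 3.34, 2.91, 2.68 and 2.89 FPKM in naive C57 ganglia. The DBA libraries were all higher, 2.16-fold on average (SE of the log2 difference 0.045, adjusted p = 4.6e-12). Alad (chr4:62509169-62519918), a haem synthesis enzyme also duplicated in DBA/2J, had 1.17, 1.14, 1.09 and 1.1 FPKM in naive DBA and 0.419, 0.388, 0.373 and 0.422 FPKM in naive C57 ganglia, 2.81-fold apart (adjusted p = 6e-13). Its neighbour Hdhd3 differed likewise, at 1.02 ± 0.066 in naive DBA and 0.338 ± 0.0302 in naive C57 ganglia.

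Gabra2, a GABA-A receptor subunit with a small intronic deletion in C57BL/6J, had 0.489, 0.485, 0.449 and 0.452 FPKM in naive DBA and 0.142, 0.222, 0.232 and 0.187 FPKM in naive C57 ganglia. All DBA values exceeded all C57 values (adjusted p = 4.2e-10), and naive CAST ganglia averaged 0.488 ± 0.0306 FPKM. Kcnj9, a G protein-gated potassium channel, averaged 0.434 ± 0.0558 in naive DBA and 0.282 ± 0.0357 in naive C57 ganglia (adjusted p = 0.00024). Ahr, the dioxin receptor, averaged 0.305 ± 0.0172 in naive DBA and 0.212 ± 0.0216 in naive C57 ganglia (adjusted p = 0.009, lost in 1 of 16 alternatives). H2-Ea-ps, the class II alpha chain gene silenced in C57BL/6 by a promoter deletion, had 427.6, 532, 711.7 and 590.1 estimated reads in naive DBA and 1.8, 0.6, 1.8 and 1.2 in naive C57 libraries.

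The 9 lower genes include Entpd4, a lysosomal and Golgi nucleotidase, with 4.01, 4.01, 3.95 and 3.91 FPKM in naive DBA and 7.71, 7.41, 7.41 and 7.56 FPKM in naive C57 ganglia. The ratio of the C57 to the DBA mean was 1.9 (adjusted p = 9.6e-14), and a near-identical annotated copy lies beside it, so that reads may be shared. Hc, complement component C5, in which DBA/2J carries a frameshift, had 3.4, 13.1, 6.8 and 5.7 estimated reads in naive DBA and 72.3, 78, 84.9 and 79.2 in naive C57 libraries. The pigment genes Tyrp1 and Gpnmb, both mutated in DBA/2J, averaged 0.188 ± 0.0199 in naive DBA and 0.48 ± 0.162 in naive C57 ganglia for Tyrp1, and 0.106 ± 0.0809 in naive DBA and 0.259 ± 0.0587 in naive C57 ganglia for Gpnmb (adjusted p = 0.00025 and 0.018). The Gpnmb groups overlapped, and its call was lost in 4 of 16 alternatives, among them those without DBA replicate 1 or 4 or C57 replicate 4 (adjusted p up to 0.065).

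Myo5a, the dilute myosin, averaged 0.462 ± 0.0251 in naive DBA and 0.61 ± 0.0938 in naive C57 ganglia (adjusted p = 0.00091). Mpdz, a scaffold gene linked to seizure susceptibility, averaged 0.148 ± 0.00808 in naive DBA and 0.205 ± 0.0336 in naive C57 ganglia (adjusted p = 0.00043). Cox7a2l, a respiratory supercomplex factor, averaged 3.09 ± 0.209 in naive DBA and 3.67 ± 0.411 in naive C57 ganglia (adjusted p = 0.0052). These 3 calls were lost when the 8 naive libraries were fitted alone, and that of Cox7a2l, whose groups overlapped, also without naive C57 replicate 1 and naive DBA replicate 3. Nnt, a mitochondrial transhydrogenase with a deletion of exons in C57BL/6J, averaged 0.04 ± 0.00165 in naive DBA and 0.0584 ± 0.0048 in naive C57 ganglia (adjusted p = 1.3e-06). Fscn2 and Klrd1 were not called. Fscn2, a fascin of retina and inner ear, averaged 0.0661 ± 0.0181 in naive DBA and 0.0694 ± 0.0178 in naive C57 ganglia. Klrd1, the CD94 receptor of natural killer cells that DBA/2J lacks, averaged 0.00264 ± 0.000845 in naive DBA and 0.00715 ± 0.00207 in naive C57 ganglia, from a mean of 1.78 estimated reads in naive DBA and 4.94 in naive C57 libraries (adjusted p = 0.98 and 0.24). Klrd1 was called with the 8 naive libraries fitted alone (adjusted p = 0.037).

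Called genes were spread over every chromosome, from 13.9% of tested genes on the mitochondrial genome and 15.9% on X to 25.9% on chromosome 17 and 26.5% on chromosome 14. In 469 windows of 2 Mb with at least 20 tested genes the share ran from 0% to 70.7%, with a median of 20.9%. The windows described next were chosen after their values were seen. In the kallikrein cluster, chr7:43712567-44229618 (mm10), 17 of 20 tested genes were called, 16 of them higher in DBA. Kallikreins are secreted serine proteases. Klk8, neuropsin, averaged 2.39 ± 0.174 in naive DBA and 0.244 ± 0.0238 in naive C57 ganglia (9.83-fold, adjusted p = 8.1e-15). Klk5 averaged 0.647 ± 0.0805 in naive DBA and 0.178 ± 0.0423 in naive C57 ganglia. Klk7 averaged 0.211 ± 0.0251 in naive DBA and 0.0171 ± 0.00783 in naive C57 ganglia. The 4 entries Klk1b1, Klk1b8, Klk1b9 and Klk1b11 had nearly the same reads, for example 50, 48, 56 and 58 for Klk1b8 in naive DBA and 0, 4, 8 and 4 in naive C57 libraries, and count as 1 signal.

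At chr4:41903610-42773993 all 30 called of 34 tested genes were lower in DBA. The segment holds several copies of Ccl21, a chemokine that guides dendritic and T cells through CCR7. Ccl21a had 1.6, 1.31, 1.57 and 1.6 FPKM in naive DBA and 3.04, 3.64, 3.79 and 3.39 FPKM in naive C57 ganglia. Ccl21b averaged 1.24 ± 0.295 in naive DBA and 4.13 ± 0.556 in naive C57 ganglia. Ccl21c averaged 1.56 ± 0.429 in naive DBA and 6.76 ± 0.813 in naive C57 ganglia. The groups did not overlap for any of the 3, and their C57 to DBA ratios were 2.29, 3.34 and 4.33, which are uncertain one by one because the copies are nearly identical.

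At chr17:30215524-30940791, from Btbd9 over Glo1 to Glp1r, all 5 tested genes were called higher in DBA. At chr3:90511034-90695721, the S100 cluster of small calcium-binding proteins, 8 of 14 tested genes were called higher and 1 lower. S100a5 had 110.3, 121.5, 108.4 and 144.5 estimated reads in naive DBA and 8.1, 5.6, 5.6 and 10 in naive C57 libraries, and S100a14 averaged 0.518 ± 0.0262 in naive DBA and 0.0497 ± 0.0165 in naive C57 ganglia (FPKM). S100a4 averaged 2.9 ± 0.192 in naive DBA and 1.96 ± 0.166 in naive C57 ganglia (adjusted p = 0.0017), while S100a6, a marker of a nociceptor subset and of Schwann cells, averaged 139 ± 8.95 in naive DBA and 181 ± 39.5 in naive C57 ganglia with an adjusted p of 0.06 and was not called. In 5 of 17 alternatives it was called lower, with a replicate block, on log2(CPM + 0.5), with voom, and without naive C57 replicate 2 or 3 (adjusted p down to 0.026).

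At chr1:172320501-173333750, from Kcnj9 to Darc, 19 of 24 tested genes were called, 17 of them higher in DBA, among them Slamf8, a macrophage surface receptor, at 0.279 ± 0.00675 in naive DBA and 0.0227 ± 0.00365 in naive C57 ganglia (FPKM). In the MHC, chr17:33996017-37274484, 81 of 255 tested genes (31.8%) were called, 65 higher and 16 lower. Of 60 tested T cell receptor alpha V segments at chr14:52863299-53684177, 51 were called, all higher in DBA. Their median of mean reads per library was 20.3 in naive DBA and 4.5 in naive C57 ganglia, and 14 segments had no read in any C57 library. Trav13n-4 had 165.4, 137.8, 75.8 and 117.1 reads in the DBA libraries and none in the C57 libraries. This segment family is itself duplicated, so the division of reads between its members is uncertain. Reads of every strain were aligned to mm10, a C57BL/6J assembly, and the part of this in the values of regions that differ in copy number or sequence was not tested.

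The 30 gene lists hold 621 genes, of which 599 are in the files. Of their 596 tested entries 180 were called (30.2%, against 21.3% of all genes), 99 higher and 81 lower in DBA. Over all tested genes 11.1% were higher and 10.2% lower, the shares beside which each list count below stands. The remaining symbols were not analysed here.

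**Figure D3:**
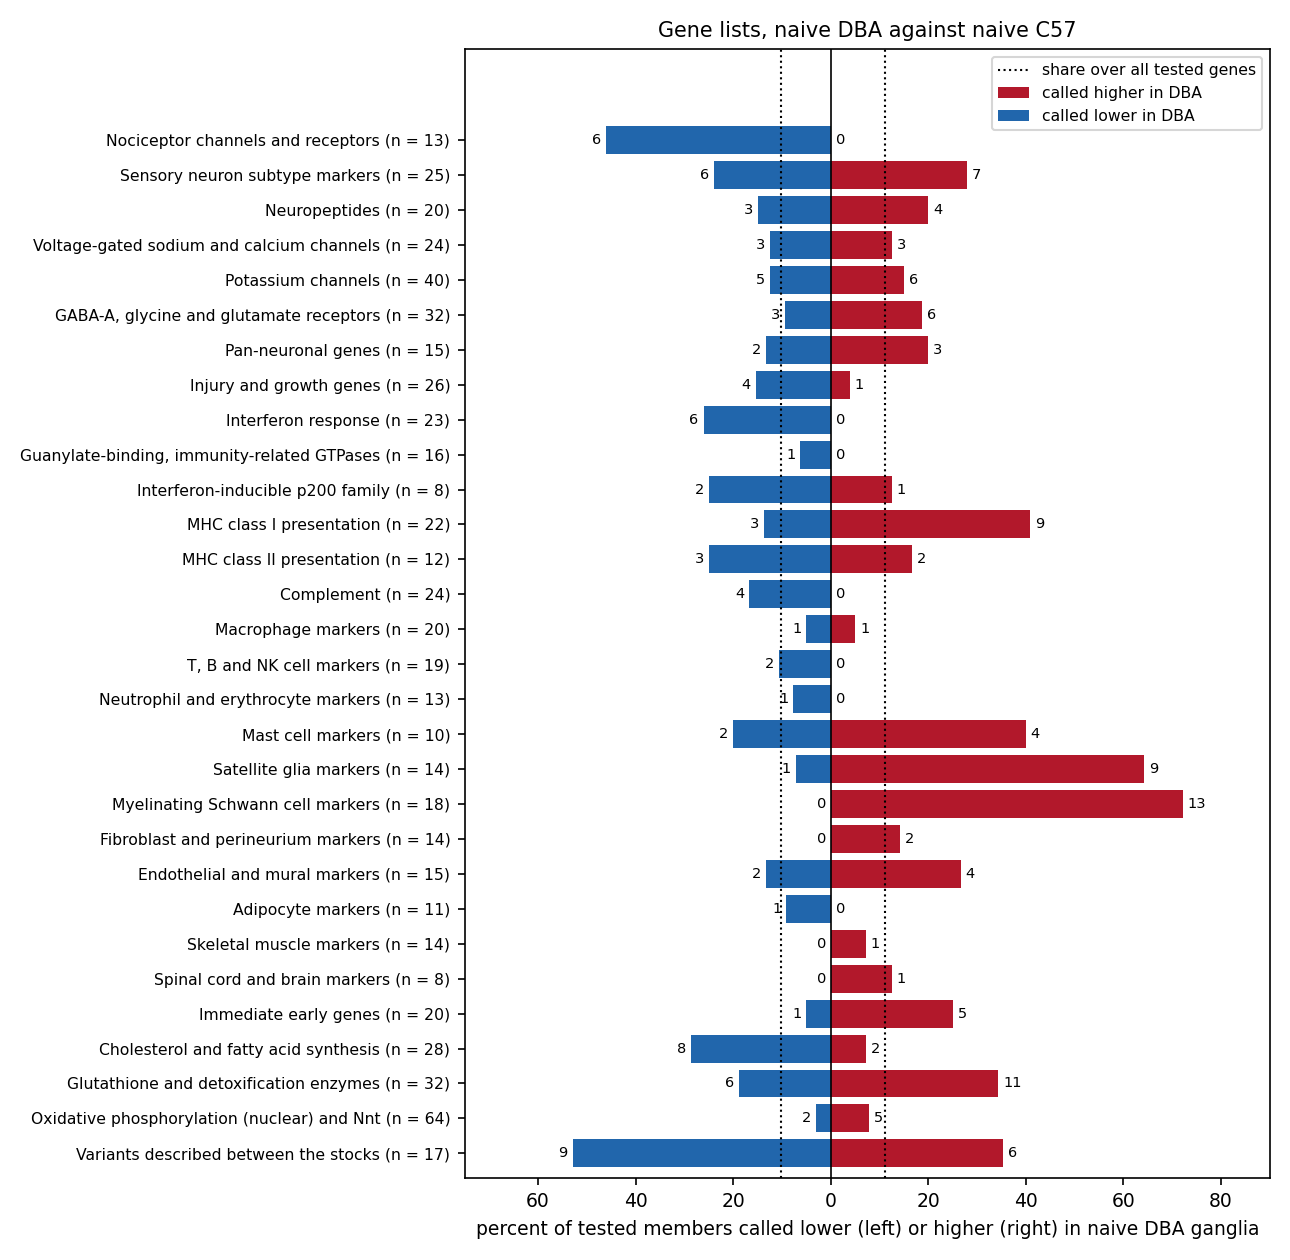
For each gene list, the percentage of its tested members called lower (left bars) and higher (right bars) in naive DBA than in naive C57 ganglia, with the number called beside each bar and the shares over all tested genes (10.2% lower, 11.1% higher) as dotted lines. The glial lists extend to the right, with 13 of 18 myelinating Schwann cell markers and 9 of 14 satellite glia markers called higher, and the nociceptor list to the left, with 6 of 13 called lower.

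Nociceptor channels and receptors were lower in DBA where they were called, 6 of 13 tested members lower and none higher, with a list median of -0.079 against 0.0004 over all genes. In injured ganglia 11 were lower and 1 higher, where 14.3% of all tested genes were called lower and 18.2% higher. Trpa1 (chr1:14872648-14918862), the ion channel that detects pungent and reactive chemicals, had 0.923, 0.931, 0.846 and 0.884 FPKM in naive DBA and 1.27, 1.23, 1.25 and 1.32 FPKM in naive C57 ganglia. Every DBA library was below every C57 library (log2 -0.26, SE 0.035, adjusted p = 1e-05). Tmem100, which links Trpa1 to Trpv1, had 3.19, 3.75, 3.57 and 3.36 FPKM in naive DBA and 5.38, 6.65, 6.65 and 5.07 FPKM in naive C57 ganglia (adjusted p = 4e-06). Prkcq, protein kinase C theta, and Oprm1, the mu opioid receptor, were lower as well, at 0.221 ± 0.0103 in naive DBA and 0.281 ± 0.0187 in naive C57 ganglia for Prkcq, and 0.0151 ± 0.000651 in naive DBA and 0.0256 ± 0.00329 in naive C57 ganglia for Oprm1. The DBA and C57 ranges of the list's summed level did not overlap, 39.41 to 41.24 FPKM in naive DBA and 46.23 to 49.86 FPKM in naive C57 ganglia.

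Markers of sensory neuron subtypes moved both ways, 7 higher and 6 lower of 25 tested (52.0%, against 21.3% of all tested genes). Spp1, osteopontin, abundant in large proprioceptive neurons, had 5.24, 4.82, 4.89 and 5.1 FPKM in naive DBA and 2.39, 2.25, 2.13 and 2.23 FPKM in naive C57 ganglia. The DBA libraries were all higher (2.23-fold, adjusted p = 9.8e-12), and the list's other higher members by size were Mrgprd, Mrgpra3 and Necab2. Mrgprd, the receptor that marks non-peptidergic nociceptors, averaged 19.9 ± 0.627 in naive DBA and 14.7 ± 0.853 in naive C57 ganglia (adjusted p = 0.043). Its call was lost in 12 of 17 alternatives, among them those without each DBA replicate in turn or each C57 replicate in turn (adjusted p up to 0.09). Mrgpra3, an itch receptor, averaged 1.29 ± 0.0694 in naive DBA and 1.01 ± 0.217 in naive C57 ganglia (adjusted p = 0.047), and this call was lost in 12 of 17 alternatives, among them those without each DBA replicate in turn or C57 replicate 2 or 3 (adjusted p up to 0.19). Necab2, a calcium-binding protein, averaged 0.329 ± 0.016 in naive DBA and 0.198 ± 0.0157 in naive C57 ganglia (adjusted p = 1.5e-06).

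Lower among the subtype markers was Mrgprb4, a receptor of neurons that respond to stroking, with 5.41, 5.12, 5.84 and 5.23 FPKM in naive DBA and 8.03, 9.98, 10.2 and 8.14 FPKM in naive C57 ganglia (adjusted p = 0.0012). Naive CAST ganglia averaged 59.1 ± 0.835 FPKM, above both. Gfra3, the artemin receptor of peptidergic nociceptors, averaged 1.27 ± 0.0261 in naive DBA and 1.7 ± 0.103 in naive C57 ganglia (adjusted p = 4.8e-06). Lpar3, a lysophosphatidic acid receptor, averaged 0.679 ± 0.0508 in naive DBA and 0.912 ± 0.109 in naive C57 ganglia (adjusted p = 0.0031). Ret, the GDNF-family signalling receptor, averaged 7.9 ± 0.303 in naive DBA and 8.95 ± 0.399 in naive C57 ganglia (adjusted p = 0.0051).

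Of 20 neuropeptide genes 4 were higher and 3 lower in DBA (35.0%, against 21.3% of all tested genes). Calca (chr7:114631478-114636357), which encodes CGRP, the main peptide of peptidergic nociceptors, had 88.1, 85.5, 84.8 and 93.8 FPKM in naive DBA and 130.2, 113, 106 and 115 FPKM in naive C57 ganglia. All DBA libraries were below all C57 libraries (log2 -0.39, SE 0.071, adjusted p = 0.0003). Nppb, an itch peptide of somatostatin neurons, averaged 3.42 ± 0.369 in naive DBA and 5.19 ± 0.526 in naive C57 ganglia (adjusted p = 0.001). Bdnf, a neurotrophin grouped with them here, averaged 0.066 ± 0.00203 in naive DBA and 0.0843 ± 0.00594 in naive C57 ganglia (adjusted p = 0.0052). Cartpt had 9.76, 8.38, 10.6 and 8.95 FPKM in naive DBA and 4.25, 4.1, 6.73 and 3.5 FPKM in naive C57 ganglia, higher in every DBA library (adjusted p = 5.5e-06). Cck, cholecystokinin, averaged 0.106 ± 0.0256 in naive DBA and 0.0301 ± 0.015 in naive C57 ganglia (adjusted p = 9.7e-05). Sst, somatostatin, and Penk, proenkephalin, averaged 5.82 ± 1.18 in naive DBA and 3.77 ± 0.513 in naive C57 ganglia for Sst, and 1.81 ± 0.0899 in naive DBA and 1.3 ± 0.291 in naive C57 ganglia for Penk. The Sst call was lost in 9 of 17 alternatives, among them those without DBA replicate 2, 3 or 4 or C57 replicate 1, 2 or 3 (adjusted p up to 0.14). The Penk call was lost in 5 of 17 alternatives, among them those without DBA replicate 3 or C57 replicate 2 or 4 (adjusted p up to 0.094).

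Voltage-gated sodium and calcium channels split evenly, 3 higher and 3 lower of 24 tested, a share little above the 21.3% of all tested genes. Scn2b, a sodium channel beta subunit, had 1.2, 1.18, 1.17 and 1.17 FPKM in naive DBA and 1.86, 2.17, 2.26 and 2.03 FPKM in naive C57 ganglia, lower in all DBA libraries (adjusted p = 2.5e-07). The beta subunit Scn3b averaged 0.696 ± 0.00829 in naive DBA and 0.577 ± 0.0409 in naive C57 ganglia, the T-type calcium channel Cacna1h 0.38 ± 0.0181 in naive DBA and 0.274 ± 0.0454 in naive C57 ganglia and the sodium channel Scn1a 0.227 ± 0.0107 in naive DBA and 0.182 ± 0.029 in naive C57 ganglia, all 3 called higher. The Scn1a call was lost with the 8 naive libraries fitted alone (adjusted p = 0.094). Cacnb1, a calcium channel beta subunit, averaged 0.567 ± 0.00249 in naive DBA and 0.645 ± 0.028 in naive C57 ganglia. Scn4b averaged 22.3 ± 0.781 in naive DBA and 24.6 ± 1.84 in naive C57 ganglia, where the groups overlapped and the call was lost in 9 of 17 alternatives, among them those without DBA replicate 2, 3 or 4 or C57 replicate 2 or 3 (adjusted p up to 0.17).

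Among potassium channels 6 of 40 tested entries were higher and 5 lower (27.5%, against 21.3% of all tested genes). Kcnj10, the inward rectifier of satellite glia, averaged 3.47 ± 0.121 in naive DBA and 2.32 ± 0.129 in naive C57 ganglia (adjusted p = 1.2e-05). Kcnn1, a calcium-activated channel, averaged 1.67 ± 0.0566 in naive DBA and 1.25 ± 0.0831 in naive C57 ganglia (adjusted p = 0.0018). Kcnip2, a partner of A-type channels, averaged 0.826 ± 0.0412 in naive DBA and 0.593 ± 0.0696 in naive C57 ganglia (adjusted p = 0.00013). Kcna6 averaged 2.44 ± 0.072 in naive DBA and 2.93 ± 0.188 in naive C57 ganglia. Kcnd3 averaged 0.14 ± 0.00581 in naive DBA and 0.17 ± 0.0127 in naive C57 ganglia. Kcnj3 averaged 0.0426 ± 0.000989 in naive DBA and 0.0606 ± 0.00301 in naive C57 ganglia, and all 3 were lower without overlap. Kcnf1 was not in the list.

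Of 32 tested GABA-A, glycine and glutamate receptor entries 6 were higher and 3 lower (28.1%, against 21.3% of all tested genes). Beside Gabra2, the GABA-A subunit Gabra3 averaged 0.0365 ± 0.00173 in naive DBA and 0.0203 ± 0.00169 in naive C57 ganglia (1.8-fold), the metabotropic receptor Grm4 0.135 ± 0.00425 in naive DBA and 0.0991 ± 0.00312 in naive C57 ganglia and the AMPA receptor subunit Gria4 0.108 ± 0.00331 in naive DBA and 0.0898 ± 0.00805 in naive C57 ganglia, all higher. Gabbr1, a GABA-B receptor subunit, averaged 3.73 ± 0.104 in naive DBA and 4.19 ± 0.177 in naive C57 ganglia and the kainate receptor subunit Grik4 0.0837 ± 0.0017 in naive DBA and 0.104 ± 0.00463 in naive C57 ganglia, both lower.

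Pan-neuronal genes gave 3 higher and 2 lower of 15 tested. The higher ones were the 3 neurofilament genes, which fill large myelinated axons. Nefl had 1163, 1079, 1055 and 1102 FPKM in naive DBA and 959, 940.2, 924 and 941 FPKM in naive C57 ganglia (log2 0.22, adjusted p = 0.0092). Nefh and Nefm averaged 310.4 ± 17.8 in naive DBA and 266 ± 23.5 in naive C57 ganglia for Nefh, and 206 ± 10.2 in naive DBA and 178 ± 7.09 in naive C57 ganglia for Nefm. The Nefh call was lost in 4 of 17 alternatives, among them those without DBA replicate 1 or C57 replicate 1 (adjusted p up to 0.072). The Nefm call was lost in 3 of 17 alternatives, among them those without DBA replicate 1 or C57 replicate 1 (adjusted p up to 0.073). Ina, alpha-internexin, and Rbfox3, the NeuN gene, were lower, at 3.79 ± 0.0402 in naive DBA and 4.43 ± 0.0669 in naive C57 ganglia for Ina, and 0.0722 ± 0.00256 in naive DBA and 0.083 ± 0.00101 in naive C57 ganglia for Rbfox3. The list's mean log2 level overlapped between the strains. Without naive DBA replicate 1 the list held 3 calls.

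Most glial markers were called higher in DBA. Of 18 myelinating Schwann cell markers 13 were called higher and none lower, with a list median of 0.187. In injured ganglia 11 were higher, where 18.2% of all tested genes were. Pmp2, a myelin lipid-binding protein, had 7.18, 6.96, 9.36 and 5.24 FPKM in naive DBA and 3.16, 3.5, 4.23 and 3.41 FPKM in naive C57 ganglia. The lowest DBA library was above the highest C57 library (log2 0.82, SE 0.15, adjusted p = 0.0004). Cldn19, a tight junction protein of Schwann cells, had 6.27, 6.7, 7.46 and 5.51 FPKM in naive DBA and 3.45, 4.64, 4.47 and 4.15 FPKM in naive C57 ganglia (adjusted p = 8e-05). Pmp22 averaged 13.4 ± 1.33 in naive DBA and 10.1 ± 0.395 in naive C57 ganglia (adjusted p = 0.00013). Mal, a myelin proteolipid, averaged 3.4 ± 0.37 in naive DBA and 2.49 ± 0.204 in naive C57 ganglia (adjusted p = 0.00014).

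The mean log2(FPKM + 1) of the Schwann cell markers was 1.903 to 2.123 in naive DBA and 1.689 to 1.822 in naive C57 ganglia, without overlap. The marker sum overlapped narrowly, at 161.1 to 209.9 FPKM in naive DBA and 133.5 to 161.3 FPKM in naive C57 ganglia. Its highest library was naive DBA replicate 3, which also held the most muscle RNA, and its lowest naive C57 replicate 1. Without both, 7 members were called, and how much nerve or surrounding tissue each dissection held was not tested.

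Of 14 satellite glia markers 9 were called higher and 1 lower, with a median of 0.194. In injured ganglia 11 were higher, where 18.2% of all tested genes were. Apoe, apolipoprotein E, had 107, 104, 98.6 and 115 FPKM in naive DBA and 91.5, 71.7, 69.1 and 83.9 FPKM in naive C57 ganglia, all DBA libraries above all C57 libraries (adjusted p = 0.0017). Gja1, connexin 43, had 2.72, 3.0, 2.9 and 2.77 FPKM in naive DBA and 1.92, 2.03, 1.93 and 1.88 FPKM in naive C57 ganglia (adjusted p = 2.9e-06). Sox2, a transcription factor of glial precursors, averaged 6.41 ± 0.402 in naive DBA and 5.11 ± 0.235 in naive C57 ganglia (adjusted p = 0.0043). Fabp7, the brain lipid-binding protein of satellite glia, averaged 29 ± 1.9 in naive DBA and 20.8 ± 0.858 in naive C57 ganglia and was not called (adjusted p = 0.15), although it was called with the 8 naive libraries fitted alone (adjusted p = 0.0014). Glul, glutamine synthetase, went the other way, with 9.61, 10.1, 9.69 and 9.51 FPKM in naive DBA and 12.8, 12.8, 12.7 and 11.6 FPKM in naive C57 ganglia, lower in every DBA library (adjusted p = 0.00016).

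**Figure D4:**
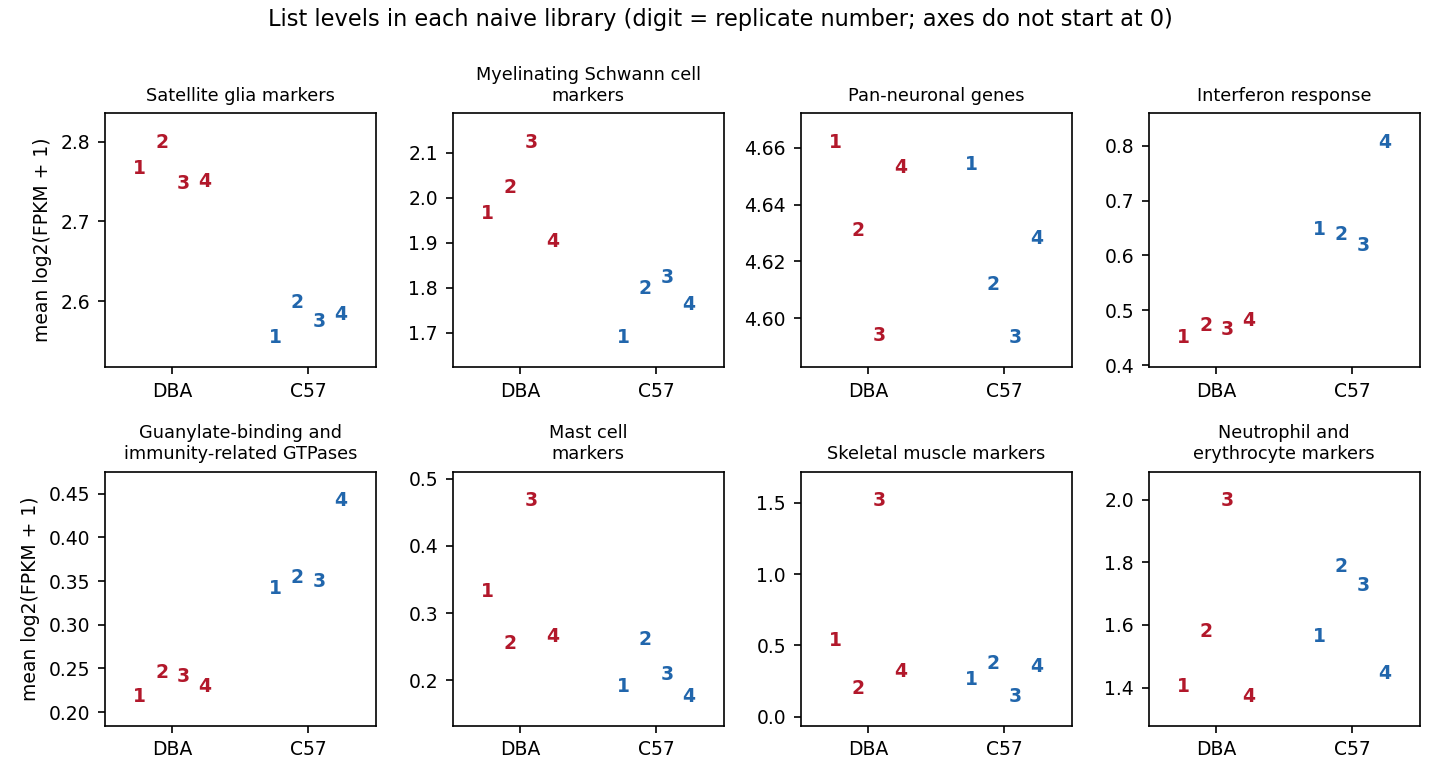
Mean log2(FPKM + 1) over the tested members of 8 lists in each naive library, shown as the replicate number, DBA on the left and C57 on the right; the axes do not start at 0. The satellite glia, Schwann cell, interferon and GTPase levels do not overlap between the strains, while the pan-neuronal level does, and naive DBA replicate 3 stands high for muscle.

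Other cell types differed in fewer genes. Of 14 fibroblast and perineurium markers 2 were higher, Apod at 7.78 ± 1.26 in naive DBA and 5.86 ± 0.891 in naive C57 ganglia and Mfap5 at 0.268 ± 0.0498 in naive DBA and 0.198 ± 0.00989 in naive C57 ganglia. The Apod call was lost in 7 of 17 alternatives, among them those without DBA replicate 2 or 3 or C57 replicate 3 or 4 (adjusted p up to 0.15). The Mfap5 call was lost in 3 of 16 alternatives, with an adjusted p of 0.062 without naive DBA replicate 3. The list had 1 call without naive DBA replicate 2 or naive C57 replicate 3 or 4, and 0 without naive DBA replicate 3. Of 15 endothelial and mural markers 4 were higher and 2 lower. Acta2, smooth muscle actin, averaged 1.08 ± 0.175 in naive DBA and 0.601 ± 0.0878 in naive C57 ganglia (adjusted p = 0.0014), and the endothelial growth factor receptor Kdr 0.197 ± 0.0151 in naive DBA and 0.145 ± 0.00324 in naive C57 ganglia (adjusted p = 0.00027). Egfl7 and Flt1 were the other higher members and Emcn and Tek the lower ones. The Flt1 call was lost in 5 of 16 alternatives, among them those without DBA replicate 2 or 3 or C57 replicate 1 (adjusted p up to 0.069). The Tek call was lost in 5 of 16 alternatives, among them those without DBA replicate 1 or 2 or C57 replicate 2 or 3 (adjusted p up to 0.078). Of 11 adipocyte markers Scd1 alone was called, given with lipid synthesis, and of 14 muscle markers Actn3 alone was called, higher, at 0.348 ± 0.327 in naive DBA and 0.0929 ± 0.0288 in naive C57 ganglia, a call lost in 6 of 16 alternatives, among them those without each C57 replicate in turn (adjusted p up to 0.078). Without naive DBA replicate 2 or replicate 4 there were 4 calls among the muscle markers.

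The summed level of 23 interferon response genes lay below the C57 range in every naive DBA library, at 9.89 to 10.95 FPKM in naive DBA and 15.47 to 24.34 FPKM in naive C57 ganglia. These genes are switched on by type I and II interferons through STAT proteins and IRF9, which bind the interferon-stimulated response element, and they are expressed at a low tonic level in unchallenged tissue. Of 23 tested members 20 had no overlap between the strains, against 22.9% of all tested genes. The 6 called members (26.1%, against 21.3% of all tested genes) were all lower, and the list median was -0.11. In injured ganglia none was lower and 1 was higher. A change of the strain difference with injury was called for 0 of the 23 members, so no member's difference was shown to change. The list's mean log2(FPKM + 1) was 0.45, 0.473, 0.466 and 0.482 in naive DBA, and 0.648, 0.638, 0.618 and 0.806 in naive C57 libraries. All 4 C57 libraries were higher and replicate 4 was the highest.

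The promoters of 4 of the 6 called genes hold the core of that response element. They are shown because these genes were all called lower. Each is 250 bases before to 50 bases after the annotated start, from RefSeq on GRCm38.p6, written along the gene's strand, with matches to GAAA, any 2 bases and GAAA in capitals, which read TTTC, any 2 bases and TTTC where the match is on the other strand. They are Ifit1 at chr19:34640639-34640938 (+), Ifit3 at chr19:34583279-34583578 (+), Isg15 at chr4:156200769-156201068 (-) and Stat2 at chr10:128270248-128270547 (+).
Ifit1: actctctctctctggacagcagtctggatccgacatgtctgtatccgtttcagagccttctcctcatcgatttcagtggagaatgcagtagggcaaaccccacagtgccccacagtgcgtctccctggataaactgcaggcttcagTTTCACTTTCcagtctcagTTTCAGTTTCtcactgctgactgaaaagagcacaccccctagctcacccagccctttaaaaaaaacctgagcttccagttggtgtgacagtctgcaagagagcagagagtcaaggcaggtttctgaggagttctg
Ifit3: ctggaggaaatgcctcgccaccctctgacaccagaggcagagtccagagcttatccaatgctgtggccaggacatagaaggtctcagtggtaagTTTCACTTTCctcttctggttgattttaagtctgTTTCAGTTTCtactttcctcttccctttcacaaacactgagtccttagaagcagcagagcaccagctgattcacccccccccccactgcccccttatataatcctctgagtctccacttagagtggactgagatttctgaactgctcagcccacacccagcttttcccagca
Isg15: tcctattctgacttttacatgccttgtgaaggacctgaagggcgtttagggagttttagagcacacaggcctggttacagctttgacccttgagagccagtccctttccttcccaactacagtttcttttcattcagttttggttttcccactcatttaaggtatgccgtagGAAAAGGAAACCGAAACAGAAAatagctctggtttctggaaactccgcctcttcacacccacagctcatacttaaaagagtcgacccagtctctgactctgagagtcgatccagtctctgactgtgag
Stat2: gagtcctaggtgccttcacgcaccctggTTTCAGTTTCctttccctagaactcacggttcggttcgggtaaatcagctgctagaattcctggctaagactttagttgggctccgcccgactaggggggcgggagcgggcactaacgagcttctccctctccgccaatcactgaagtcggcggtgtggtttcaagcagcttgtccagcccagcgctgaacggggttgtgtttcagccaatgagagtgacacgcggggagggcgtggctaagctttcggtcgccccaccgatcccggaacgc
The motif occurs in 1131 of 32851 promoters of this length (3.44%), in 10 of 16 interferon list members with a promoter in the table and in 4 of the 6 called ones. The Isg15 promoter has 3 overlapping matches, those of Ifit1 and Ifit3 have 2 each and that of Stat2 has 1. The sequence is that of the reference assembly and says nothing of the alleles in these mice.

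Ifit1, which binds foreign RNA, had 0.635, 0.696, 0.595 and 0.699 FPKM in naive DBA and 1.78, 1.63, 1.61 and 3.12 FPKM in naive C57 ganglia. The highest DBA value was under the lowest C57 value, and C57 replicate 4 stood above the other C57 libraries (log2 -0.85, SE 0.22, adjusted p = 0.0068). Oasl2, an oligoadenylate synthetase-like protein, had 0.402, 0.425, 0.406 and 0.448 FPKM in naive DBA and 0.838, 0.746, 0.768 and 1.0 FPKM in naive C57 ganglia (adjusted p = 0.002). Ifit3 averaged 1.35 ± 0.102 in naive DBA and 3.36 ± 0.814 in naive C57 ganglia (adjusted p = 0.023). Irf9, the DNA-binding part of the STAT complex, averaged 0.546 ± 0.0279 in naive DBA and 0.764 ± 0.0806 in naive C57 ganglia (adjusted p = 0.014). Isg15, a ubiquitin-like modifier, had 1.11, 1.21, 1.3 and 1.45 FPKM in naive DBA and 2.28, 2.36, 1.61 and 3.56 FPKM in naive C57 ganglia, and Stat2 averaged 1.31 ± 0.057 in naive DBA and 1.81 ± 0.234 in naive C57 ganglia (adjusted p = 0.044 and 0.048).

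The number of interferon calls depended on single libraries, on the scale and on which groups shared the estimate of the spread. There were 2 without naive C57 replicate 4 and 3 without naive DBA replicate 1. A pseudocount of 0.1 gave 12 and the 8 naive libraries fitted alone gave 14, 1 of them higher in both cases. The Isg15 call was lost in 11 of 17 alternatives, among them those without each DBA replicate in turn or C57 replicate 1, 2 or 4 (adjusted p up to 0.16). The Stat2 call was lost in 10 of 17 alternatives, among them those without each DBA replicate in turn or C57 replicate 2, 3 or 4 (adjusted p up to 0.15). The Ifit3 call was lost in 3 of 17 alternatives, among them those without DBA replicate 1 or C57 replicate 4 (adjusted p up to 0.077). The Irf9 call was lost in 1 of 16 alternatives, with an adjusted p of 0.053 without naive C57 replicate 4.

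The guanylate-binding and immunity-related GTPases, effectors of interferon gamma, showed the same order of levels, with a median of -0.109. Of 16 tested members 15 were without overlap, against 22.9% of all tested genes, but only 6.2% were called, against 21.3%. Only Igtp was called, at 0.364 ± 0.0233 in naive DBA and 0.877 ± 0.149 in naive C57 ganglia (adjusted p = 0.045), and that call was lost in 11 of 16 alternatives, among them those without each DBA replicate in turn or each C57 replicate in turn (adjusted p up to 0.11). With the 8 naive libraries fitted alone 11 were called. In the p200 family of interferon-inducible DNA sensors Aim2 was higher, at 0.169 ± 0.0127 in naive DBA and 0.125 ± 0.0151 in naive C57 ganglia (adjusted p = 0.0065), and Mndal and Ifi203 were lower, at 0.0624 ± 0.0116 in naive DBA and 0.194 ± 0.0472 in naive C57 ganglia for Mndal, and 0.0166 ± 0.00289 in naive DBA and 0.0474 ± 0.0126 in naive C57 ganglia for Ifi203, of 8 tested. The Mndal call was lost in 3 of 16 alternatives, among them those without DBA replicate 1 or C57 replicate 2 or 3 (adjusted p up to 0.074). The Ifi203 call was lost in 9 of 16 alternatives, among them those without each DBA replicate in turn or C57 replicate 2, 3 or 4 (adjusted p up to 0.11). The Aim2 call was lost without both naive DBA replicate 3 and naive C57 replicate 1 (adjusted p = 0.066). The family had 1 call without naive DBA replicate 1 or naive C57 replicate 2 or 3, against 7, 2 higher and 5 lower, with the 8 naive libraries fitted alone or on log2(CPM + 0.5).

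MHC class I presentation genes gave 9 higher and 3 lower of 22 tested. B2m, the light chain shared by all class I molecules, had 11, 12.1, 12.1 and 12.6 FPKM in naive DBA and 23.4, 18.3, 16.9 and 21.2 FPKM in naive C57 ganglia, lower in every DBA library (log2 -0.69, SE 0.11, adjusted p = 0.00013). The non-classical heavy chain genes H2-Q2, H2-Q4, H2-Q6 and H2-Q10 were higher, H2-Q2 with 2.27, 2.42, 2.14 and 2.36 FPKM in naive DBA and 0.507, 0.36, 0.375 and 0.537 FPKM in naive C57 ganglia. H2-Q4 averaged 2.55 ± 0.119 in naive DBA and 1.12 ± 0.219 in naive C57 ganglia. H2-Q6 averaged 2.0 ± 0.0804 in naive DBA and 0.751 ± 0.0906 in naive C57 ganglia. H2-Q10 averaged 0.91 ± 0.0306 in naive DBA and 0.309 ± 0.0392 in naive C57 ganglia. H2-T24 was lower, at 0.0774 ± 0.00715 in naive DBA and 0.401 ± 0.12 in naive C57 ganglia, as was H2-T22, at 0.889 ± 0.0307 in naive DBA and 1.22 ± 0.114 in naive C57 ganglia, a call lost in 5 of 17 alternatives, among them those without DBA replicate 1 or 2 or C57 replicate 1 or 4 (adjusted p up to 0.082). Class I genes of the Q and T regions are near copies that differ between haplotypes in number and sequence, so reads may have been divided among them, and how much of these values this accounts for was not tested.

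Of 12 MHC class II genes 2 were higher and 3 lower. Beside H2-Ea-ps, H2-DMa, which edits the bound peptide, was higher, with 3.52, 3.56, 3.75 and 3.54 FPKM in naive DBA and 1.97, 1.58, 1.64 and 1.8 FPKM in naive C57 ganglia (adjusted p = 2.1e-06). H2-DMb1 was lower, with 0.179, 0.192, 0.305 and 0.172 FPKM in naive DBA and 0.46, 0.518, 0.544 and 0.496 FPKM in naive C57 ganglia (adjusted p = 0.00022). Ciita, the master regulator of class II genes, averaged 0.0776 ± 0.00808 in naive DBA and 0.18 ± 0.0253 in naive C57 ganglia (adjusted p = 3.6e-06). H2-Eb1 averaged 1.01 ± 0.216 in naive DBA and 1.52 ± 0.247 in naive C57 ganglia, where the groups overlapped and the call was lost in 9 of 17 alternatives, among them those without DBA replicate 1, 2 or 4 or C57 replicate 1, 2 or 4 (adjusted p up to 0.13).

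Of 20 macrophage markers Aif1 was higher, at 0.0859 ± 0.00951 in naive DBA and 0.0523 ± 0.0127 in naive C57 ganglia, and Gpnmb lower. The Aif1 call was lost in 4 of 16 alternatives, among them those without DBA replicate 2 or 4 or C57 replicate 1 (adjusted p up to 0.081). The list had 1 call without naive DBA replicate 1 or 2 or naive C57 replicate 1 or 4, and 0 without naive DBA replicate 4. Of 24 complement genes 4 were lower and none higher (16.7%, below the 21.3% of all tested genes). They were Hc above, Cd55, a complement inhibitor of sensory neurons, at 6.53 ± 0.266 in naive DBA and 8.05 ± 0.413 in naive C57 ganglia (adjusted p = 0.012), C1qb at 0.874 ± 0.11 in naive DBA and 1.18 ± 0.186 in naive C57 ganglia and Cfi at 0.011 ± 0.00165 in naive DBA and 0.0194 ± 0.00302 in naive C57 ganglia. The C1qb call was lost in 9 of 17 alternatives, among them those without DBA replicate 1, 2 or 4 or C57 replicate 1, 2 or 3 (adjusted p up to 0.13). The Cfi call was lost in 8 of 16 alternatives, among them those without DBA replicate 1, 2 or 4 or C57 replicate 1, 2 or 4 (adjusted p up to 0.11). The Cd55 call was lost without both naive DBA replicate 3 and naive C57 replicate 1 (adjusted p = 0.062), when 1 call was left in the list. There were 2 calls without naive DBA replicate 1, 2 or 4 or naive C57 replicate 1 or 2.

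Among 19 T, B and NK cell markers 2 were lower and none higher (10.5%, against 21.3% of all tested genes). Ighm (chr12:113418558-113422730), the immunoglobulin mu chain of B cells, had 1.11, 1.26, 1.17 and 0.934 FPKM in naive DBA and 4.74, 4.85, 4.56 and 4.56 FPKM in naive C57 ganglia. All 4 C57 libraries were well above the DBA libraries (log2 -1.42, SE 0.07, adjusted p = 3.6e-12). Ighg2c, outside the list, a constant-region gene of the C57BL/6 haplotype whose place is taken by Ighg2a in DBA/2J, had 0.0315, 0.0262, 0.0648 and 0.039 FPKM in naive DBA and 1.6, 1.61, 1.5 and 1.48 FPKM in naive C57 ganglia. Cd3e, a T cell receptor complex subunit, averaged 0.01 ± 0.00417 in naive DBA and 0.0339 ± 0.0144 in naive C57 ganglia, from a mean of 11 estimated reads in naive DBA and 36.4 in naive C57 libraries (adjusted p = 0.002), a call lost with the 8 naive libraries fitted alone (0.053). The other members were not called, and without naive DBA replicate 4 there were 5 calls in this list.

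Mast cell markers gave 4 higher and 2 lower of 10 tested. The proteases Cma1 and Tpsab1 averaged 0.631 ± 0.32 in naive DBA and 0.222 ± 0.0878 in naive C57 ganglia for Cma1, and 0.0596 ± 0.029 in naive DBA and 0.0155 ± 0.00604 in naive C57 ganglia for Tpsab1. Fcer1a, the IgE receptor alpha chain, averaged 0.0582 ± 0.0152 in naive DBA and 0.0138 ± 0.0118 in naive C57 ganglia, all higher. The Fcer1a call was lost without both naive DBA replicate 3 and naive C57 replicate 1 (adjusted p = 0.057). Mcpt4 was the other, at 0.754 ± 0.398 in naive DBA and 0.318 ± 0.0909 in naive C57 ganglia, with overlapping groups and a call lost in 9 of 16 alternatives, among them those without DBA replicate 1 or 3 or C57 replicate 1, 3 or 4 (adjusted p up to 0.17). With the 8 naive libraries fitted alone 2 members were called in all, and Cma1 and Tpsab1 were not among them. Hdc, which makes histamine, was lower, at 0.0147 ± 0.00213 in naive DBA and 0.0291 ± 0.00581 in naive C57 ganglia, and so was Ms4a2, at 0.0125 ± 0.0072 in naive DBA and 0.0223 ± 0.0035 in naive C57 ganglia, a call lost in 3 of 16 alternatives, among them those without DBA replicate 1 or 2 (adjusted p up to 0.051). Mcpt2, a mucosal mast cell protease outside the list and named after its values were seen, had 167.8, 150.2, 302.5 and 196.8 estimated reads in naive DBA and 1, 0, 1 and 0 in naive C57 libraries.

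Of 13 neutrophil and erythrocyte markers Hba-a2, an alpha-globin, was the only one called (7.7%, against 21.3% of all tested genes). It averaged 110.3 ± 31.5 in naive DBA and 226 ± 66 in naive C57 ganglia. The call was lost in 8 of 17 alternatives, among them those without DBA replicate 1, 2 or 4 or C57 replicate 2, 3 or 4 (adjusted p up to 0.13).

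Lipid synthesis genes were lower more often than higher, 8 against 2 of 28 tested, with a median of -0.09 against 0.0004 over all genes. Sc5d, a late enzyme of cholesterol synthesis, had 3.46, 3.51, 3.32 and 3.49 FPKM in naive DBA and 5.12, 5.52, 5.27 and 5.1 FPKM in naive C57 ganglia. No DBA library reached the C57 range (log2 -0.49, SE 0.037, adjusted p = 2.8e-09). Scd1, the stearoyl-CoA desaturase, had 59.7, 61.1, 56.6 and 57.2 FPKM in naive DBA and 74.5, 72.7, 68.4 and 78.1 FPKM in naive C57 ganglia (adjusted p = 2.7e-05). Cyp51, lanosterol demethylase, averaged 1.66 ± 0.0764 in naive DBA and 2.29 ± 0.0962 in naive C57 ganglia (adjusted p = 0.00013). The higher genes were Hmgcs1, HMG-CoA synthase, at 44.6 ± 1.23 in naive DBA and 39.9 ± 1.4 in naive C57 ganglia, and Srebf1, a regulator of lipogenesis, at 1.25 ± 0.0299 in naive DBA and 1.09 ± 0.0945 in naive C57 ganglia. The Hmgcs1 call was lost in 3 of 17 alternatives, among them those without DBA replicate 1 or 2 or C57 replicate 3 (adjusted p up to 0.065). The Srebf1 call was lost in 5 of 17 alternatives, among them those without DBA replicate 1 or 4 or C57 replicate 2 or 3 (adjusted p up to 0.11). Without naive DBA replicate 1 the list had 6 calls.

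Glutathione and detoxification enzymes gave 11 higher and 6 lower of 32 tested (53.1%, against 21.3% of all tested genes). Gsta4, which conjugates lipid peroxidation products, had 0.84, 0.899, 0.846 and 0.925 FPKM in naive DBA and 0.603, 0.477, 0.544 and 0.482 FPKM in naive C57 ganglia, higher in every DBA library (adjusted p = 2.8e-09). Gstm1 averaged 2.33 ± 0.103 in naive DBA and 1.87 ± 0.178 in naive C57 ganglia (adjusted p = 0.0023). Gstt2 averaged 1.65 ± 0.121 in naive DBA and 1.3 ± 0.26 in naive C57 ganglia, a call lost in 5 of 17 alternatives, among them those without DBA replicate 1 or 4 or C57 replicate 2 or 3 (adjusted p up to 0.12). Ephx1, microsomal epoxide hydrolase, had 0.398, 0.382, 0.421 and 0.423 FPKM in naive DBA and 0.904, 0.806, 0.745 and 0.822 FPKM in naive C57 ganglia, lower in every DBA library (adjusted p = 7.8e-11). Aldh1a1, a retinaldehyde dehydrogenase, averaged 0.111 ± 0.0153 in naive DBA and 0.191 ± 0.0123 in naive C57 ganglia (adjusted p = 0.00038). Gstm4 averaged 0.474 ± 0.0152 in naive DBA and 0.557 ± 0.042 in naive C57 ganglia (adjusted p = 0.0048), a call lost without both naive DBA replicate 3 and naive C57 replicate 1 (0.056). The list's 17 calls became 9 without naive DBA replicate 4, without naive C57 replicate 2, or with the 8 naive libraries fitted alone.

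Of 64 nuclear oxidative phosphorylation genes, Nnt included, 5 were higher and 2 lower (10.9%, below the share of all genes). There were 16 calls without naive C57 replicate 1, 14 without both it and naive DBA replicate 3, and 3 with the 8 naive libraries fitted alone. Ndufb5 averaged 0.815 ± 0.0623 in naive DBA and 0.645 ± 0.0347 in naive C57 ganglia (adjusted p = 8.4e-05).

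Of 81 ribosomal protein genes 11 were called (13.6%), all lower in DBA, although the median over the 81 was 0.028. Of 175 entries named as ribosomal protein pseudogenes 22 were higher and 13 lower (20%). Neither share was above the 21.3% of all tested genes. Rpl21 had 1.01, 0.925, 0.948 and 1.04 FPKM in naive DBA and 2.83, 2.27, 2.3 and 2.43 FPKM in naive C57 ganglia, whereas its copy Rpl21-ps15 had 51.4, 51.8, 51.4 and 54.8 FPKM in naive DBA and 30.8, 25.1, 26.7 and 27.3 FPKM in naive C57 ganglia. Over the 13 Rpl21 entries together there were 42.24 ± 1.48 CPM (counts scaled to library total) in naive DBA and 33.68 ± 2.56 CPM in naive C57 libraries (SD, n = 4 each), and the gene itself held 9.6% of them in DBA and 30.2% in C57. The 9 Rpsa entries held 231.99 ± 18.35 CPM in naive DBA and 295.46 ± 39.02 CPM in naive C57 libraries, with 18.3% and 31.5% at the gene. Single values of genes with such copies are uncertain, Rpl29 at 5.96 ± 0.547 in naive DBA and 14.3 ± 1.82 in naive C57 ganglia among them.

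Of 26 entries for injury and growth genes 1 was higher and 4 lower in naive DBA ganglia (19.2%, against 21.3% of all tested genes). In injured DBA ganglia 15 were higher and 1 lower, where 18.2% of all tested genes were called higher and 14.3% lower. Tubb6, a tubulin isotype induced after axon injury, had 1.2, 1.16, 1.06 and 1.14 FPKM in naive DBA and 1.79, 1.77, 1.85 and 1.98 FPKM in naive C57 ganglia, lower in all DBA libraries (log2 -0.41, adjusted p = 7.2e-06). After injury it averaged 15.3 ± 1.08 in injured DBA and 10.4 ± 0.959 in injured C57 ganglia, so the sign was the opposite (log2 0.51, adjusted p = 2.7e-07, and 6.6e-08 for the change of the difference). Gap43, the growth cone protein, averaged 1.1 ± 0.0376 in naive DBA and 1.34 ± 0.111 in naive C57 ganglia before and 5.99 ± 0.228 in injured DBA and 5.24 ± 0.21 in injured C57 ganglia after injury (adjusted p of the change = 0.0033). The naive Gap43 call was lost in 4 of 17 alternatives, among them those without DBA replicate 3 or C57 replicate 1 or 4 (adjusted p up to 0.071).

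Fgf2, a growth factor, was also lower, at 0.0174 ± 0.000878 in naive DBA and 0.0234 ± 0.00245 in naive C57 ganglia, and Cap1, an actin regulator, was the higher one, at 2.25 ± 0.0623 in naive DBA and 1.93 ± 0.0801 in naive C57 ganglia (adjusted p = 0.00062 and 2e-05). Of 2 Flrt3 entries 1 was called lower, at 0.429 ± 0.0417 in naive DBA and 0.693 ± 0.0469 in naive C57 ganglia, a call lost in 7 of 15 alternatives, among them those without DBA replicate 1, 3 or 4 or C57 replicate 1, 2 or 4 (adjusted p up to 0.077). The transcription factor Atf3 and the peptide galanin were not called before injury. Atf3 averaged 0.3 ± 0.0361 in naive DBA and 0.288 ± 0.0444 in naive C57 ganglia. Gal averaged 2.16 ± 0.259 in naive DBA and 2.11 ± 0.213 in naive C57 ganglia. Gal differed after injury, at 340.3 ± 11.7 in injured DBA and 85.5 ± 9.18 in injured C57 ganglia (adjusted p = 1.8e-09; change of the difference, 2.2e-06), while Atf3 averaged 18.4 ± 0.975 in injured DBA and 18.1 ± 1.99 in injured C57 ganglia (adjusted p = 0.8). Calls in this list numbered 3 without naive DBA replicate 3 or naive C57 replicate 1, 8 with a pseudocount of 0.1 and 9 on log2(CPM + 0.5).

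Immediate early genes, which neurons and glia switch on within minutes of stimulation or handling, gave 5 higher and 1 lower of 20 tested in naive ganglia and 15 higher in injured ganglia. Of all tested genes 11.1% were called higher and 10.2% lower in naive ganglia, and 18.2% higher in injured ganglia. Fos had 0.998, 0.974, 0.592 and 0.802 FPKM in naive DBA and 0.499, 0.654, 0.481 and 0.407 FPKM in naive C57 ganglia, where the groups overlapped, and averaged 3.87 ± 0.384 in injured DBA and 0.957 ± 0.16 in injured C57 ganglia after injury (adjusted p = 0.011 naive, 4.6e-11 injured and 1.9e-06 for the change). The naive Fos call was lost with the 8 naive libraries fitted alone (adjusted p = 0.058). Dusp1, a MAP kinase phosphatase, averaged 4.14 ± 0.166 in naive DBA and 2.72 ± 0.433 in naive C57 ganglia (adjusted p = 0.00052). Egr1, a zinc-finger factor, averaged 1.65 ± 0.281 in naive DBA and 1.06 ± 0.199 in naive C57 ganglia (adjusted p = 0.0053). Nr4a1, an orphan nuclear receptor, averaged 4.33 ± 0.285 in naive DBA and 3.36 ± 0.211 in naive C57 ganglia, a call lost in 10 of 17 alternatives, among them those without each DBA replicate in turn or each C57 replicate in turn (adjusted p up to 0.11). Ier3 was lower, at 8.92 ± 0.398 in naive DBA and 10.6 ± 1.29 in naive C57 ganglia, a call lost in 4 of 17 alternatives, among them those without DBA replicate 3 or C57 replicate 1 (adjusted p up to 0.057). Without naive DBA replicate 3, alone or with naive C57 replicate 1, the list had 3 calls.

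A strain difference that itself changed with injury was called for 2443 genes (9.03%), and for 1070 of the genes called in naive ganglia, 642 of which had the larger difference before injury. Below, the change is the naive minus the injured difference on the log2 scale. Klk8 averaged 0.545 ± 0.153 in injured DBA and 0.151 ± 0.0379 in injured C57 ganglia after injury (change 1.03, adjusted p = 1.9e-09). Chrna6 averaged 2.7 ± 0.535 in injured DBA and 2.02 ± 0.183 in injured C57 ganglia after injury (1.08, adjusted p = 3.1e-05). Mab21l1 averaged 1.98 ± 0.192 in injured DBA and 1.38 ± 0.225 in injured C57 ganglia after injury (0.80, adjusted p = 7.5e-06), and Kcnf1 2.1 ± 0.365 in injured DBA and 0.598 ± 0.0857 in injured C57 ganglia (0.98, adjusted p = 0.00011). Comp, a cartilage matrix protein, averaged 3.45 ± 0.273 in naive DBA and 1.5 ± 0.173 in naive C57 ganglia before and 0.708 ± 0.0657 in injured DBA and 0.573 ± 0.0437 in injured C57 ganglia after injury. It was called before injury (adjusted p = 3.9e-11) but not after it (0.064), and the change was called (3.9e-07).

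Others differed more after injury. Mrgprb4 averaged 1.21 ± 0.315 in injured DBA and 5.57 ± 0.976 in injured C57 ganglia (0.92, adjusted p = 0.0033), Sox2 9.7 ± 0.767 in injured DBA and 5.49 ± 0.25 in injured C57 ganglia (-0.44, adjusted p = 0.0046) and Mcpt2 2.82 ± 0.569 in injured DBA and 0.00173 ± 0.002 in injured C57 ganglia (-1.07, adjusted p = 2.1e-05). B2m, lower in naive DBA ganglia, averaged 24.4 ± 5.75 in injured DBA and 25.4 ± 1.62 in injured C57 ganglia after injury and was not called there (adjusted p = 0.66; change, 0.021).

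**Figure D5:**
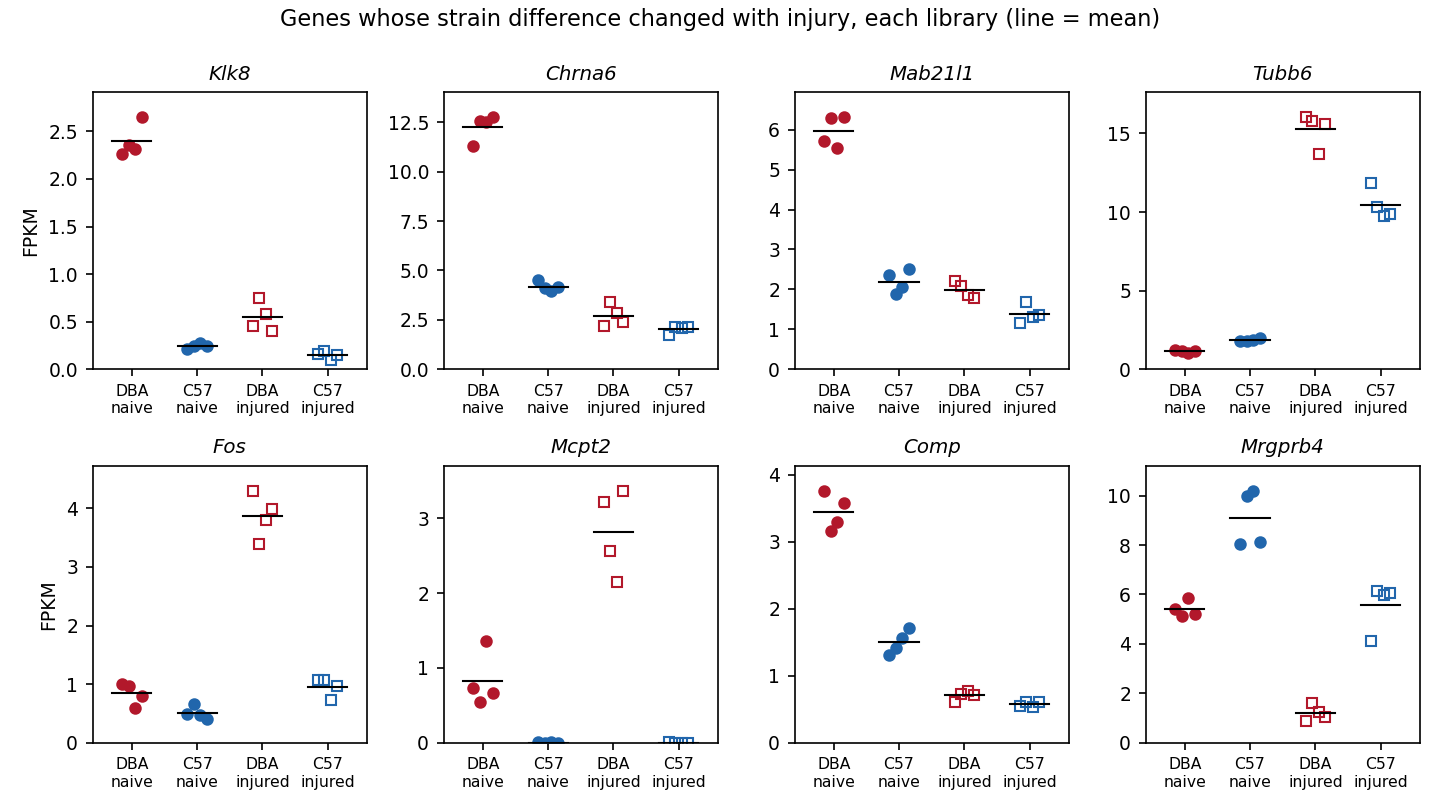
FPKM of 8 genes in each library of naive DBA, naive C57, injured DBA and injured C57 ganglia (filled points naive, open squares injured, lines the means of 4 libraries). The DBA excess of Klk8, Chrna6, Mab21l1 and Comp is larger in naive ganglia, Tubb6 changes sign, and Fos, Mcpt2 and Mrgprb4 differ more in injured ganglia.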

How the data were processed

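Total RNA of 24 dorsal root ganglion libraries was sequenced. Reads were aligned with STAR 2.3.0 to mm10, per the submitters' processing notes. Which tool, annotation and strand setting did the counting is not given in the sources used here. mm10 is a C57BL/6J assembly, and its effect on DBA reads was not tested. The deposited values are FPKM per gene, as the authors computed them. FPKM times gene span (GENCODE M21, 95.1% of IDs matched) gave whole reads within 0.05 for 67.9% of low values, against 10.0% by chance, and hence library totals.

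Of 38215 genes, 27046 with at least 10 estimated reads in 4 libraries (or 0.1 FPKM in 4 where no span was known) were tested with limma 3.58.1 (statmod 1.5.0, R 4.3.3), trend and robust, on log2(FPKM + 1), with 6 group means over all 24 libraries; a gene was called at a Benjamini-Hochberg adjusted p under 0.05. Named genes are the 12 largest rises and falls of log2(FPKM + 1), the 8 of log2(CPM + 0.5), up to 4 called members each way per list, every listed stock variant, and others said to be chosen after their values were seen; some genes the rule picks are not reported here. The members and lists were chosen with earlier results of these data known. Alternatives changed the pseudocount, filter, libraries fitted, scaling, unit, weights and block. P-values measure the spread between libraries within the 6 groups, shared over all 24 libraries, and not that of the 8 naive libraries alone.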

Additional observations from a re-analysis of the deposited data

Results flagged for a closer look

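Within single groups, 1 library lay apart from the other 3 for 23 genes and 6 lists, with a gap above Dixon's critical value of 0.829, out of 436 groups of 4 libraries examined; chance alone gives about 1 in 20. Naive DBA replicate 3, the library with the most muscle RNA, stood apart for Acta1 at 29.05 FPKM, Actn3 at 0.8354 FPKM, Cntf at 19.01 FPKM, H2-DMa at 3.755 FPKM, H2-DMb1 at 0.3054 FPKM, H2-Ea-ps at 3.095 FPKM, Nnt at 0.0425 FPKM and Tpsab1 at 0.103 FPKM. Naive C57 replicate 4 stood apart for Cacnb1 at 0.6869 FPKM, Glul at 11.6 FPKM, Grik4 at 0.1107 FPKM, Ifit1 at 3.125 FPKM and Ifit3 at 4.57 FPKM. Naive DBA replicate 1 did so for Chrna6 at 11.29 FPKM. Naive DBA replicate 2 did so for Ccl21a at 1.309 FPKM and S100a5 at 0.3526 FPKM. Naive DBA replicate 4 did so for Crip1 at 16.96 FPKM, Gm8724 at 9.148 FPKM and Rpl21-ps15 at 54.77 FPKM. Naive C57 replicate 1 did so for Kcnj3 at 0.05607 FPKM. Naive C57 replicate 2 did so for Mcpt4 at 0.4533 FPKM, SNORD113 at 77.02 FPKM and Vmn1r179 at 0.01059 FPKM. The other 3 naive C57 libraries are at 0 for Vmn1r179, so any single value above 0 would stand apart there. In mean log2(FPKM + 1) over a list, naive DBA replicate 3 was apart for MHC class II presentation at 0.85, complement at 0.779, macrophage markers at 0.532 and endothelial and mural markers at 0.653, and naive C57 replicate 4 for interferon response at 0.806 and guanylate-binding and immunity-related GTPases at 0.442. What these libraries differ in besides was not tested.

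The strain difference changed with injury, by limma's interaction term with an adjusted p under 0.05, for 62 of the 188 genes examined here. Over all tested genes it did so for 2443 of 27046 (9.03%). The 188 genes are ones named in the text, chosen with values of these data known, so their count is no independent evidence. Each value is the naive minus the injured difference of DBA and C57 on the log2(FPKM + 1) scale. Genes higher in DBA in both states, more so in naive ganglia, were Chrna6 1.077, Comp 0.715, Dnahc8 0.030, EU599041 0.834, Gabra3 0.023, Grm4 0.031, Gsta4 0.114, Kcnf1 0.978, Klk1b8 0.125, Klk5 0.440, Klk7 0.228, Klk8 1.028, Mab21l1 0.796, Samd11 0.440, Scg5 0.308 and Slamf8 0.078. Genes higher in DBA in both states, more so in injured ganglia, were Ahr -0.246, Cck -0.231, Cma1 -0.554, Fos -1.033, Gal -1.963, Glp1r -0.052, Gm10499 -0.653, Gm17782 -0.636, H2-Ea-ps -1.222, H2-Q2 -0.514, Kcnj10 -0.268, Mcpt2 -1.075, S100a4 -0.729, Sox2 -0.439, Tpsab1 -0.128 and Vmn1r179 -0.333. Genes lower in DBA in both states, more so in naive ganglia, were B2m -0.607, Chd9 -0.212, Ciita -0.113, Ephx1 -0.174, Gm13152 -0.136, Gm13301 -0.435, Ighg2c -0.413, Ighm -0.693, Nnt -0.023 and Scd1 -0.257. Genes lower in DBA in both states, more so in injured ganglia, were Aqp1 0.349, Cd55 0.510, Glul 0.355, Klrd1 0.017, Mrgprb4 0.922 and Scn4b 0.248. The fitted difference was above 0 in naive and below 0 in injured ganglia for Gstm1 0.282, Kcnip2 0.253, Kcnn1 0.296, Mrgprd 0.658, Necab2 0.173 and Scn3b 0.2. It was below 0 in naive and above 0 in injured ganglia for Bdnf -0.055, Fgf2 -0.009, Flrt3 -0.511, Gap43 -0.318, Ier3 -0.540, Ina -0.235, Tek -0.012 and Tubb6 -0.919. Not every one of these differences was itself called in each state.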

How the results depend on the processing

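With a mean FPKM of at least 1 required, 8680 genes were tested and 1708 were called between naive DBA and naive C57 ganglia (802 higher, 906 lower in DBA), 2712 between injured DBA and injured C57 ganglia, 560 for the change of the strain difference with injury, and 82 of 265 list members; fewer genes were tested. The other settings kept the naive count within 1.5 times of 5769: 5900 with a pseudocount of 0.1, 5490 without the filter, 4406 with the 8 naive libraries alone, 5916 with upper-quartile scaling, 6008 on log2(CPM + 0.5), 5880 with voom, and 5330 without naive DBA replicate 3 and naive C57 replicate 1. Leaving out 1 library gave 4877 to 6059. The share higher was 52.1% as reported, 49.2% with upper-quartile scaling, 47.6% (2887 higher, 3172 lower) without naive C57 replicate 1, 49.0% without it and naive DBA replicate 3, and 47.0 to 54.6% over all settings. The median log2 difference was 0.0004 as reported, 0.003 with a pseudocount of 0.1, 0.0 without the filter, -0.0008 at a mean FPKM of at least 1, -0.0003 with upper-quartile scaling, 0.0052 on CPM, 0.0086 with voom, -0.0003 without both libraries that stood apart, and -0.0001 to 0.001 with 1 library left out. Of tested chromosome 14 genes 18.1% were called without the filter, 22.1% at a mean FPKM of at least 1, 21.5% with the 8 naive libraries alone, and 22.4 to 27.2% with 1 library left out, against 26.5%. All 40 genes named for the largest differences that could be tested kept their call in each setting. They were picked as the largest among genes called without overlap in these same libraries, so their kept calls are no independent check. Of 3114 gene values under 17 settings, 2861 kept direction and side of the threshold, 239 lost the call, 7 gained it and 7 changed sign. The sign changes were of uncalled genes with 1 library left out: Atf3 ran from -0.002995 to 0.03573, Fscn2 ran from -0.01482 to 0.006342, Gal ran from -0.01338 to 0.08127 (log2). Where no cause is stated, the cause was not tested.

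The replicate numbers are not described as pairing the libraries, and same-numbered naive libraries correlated at -0.247, 0.165, 0.029 and 0.095 in their deviations from the group means. With a replicate block 5868 genes were called in naive ganglia, 8972 in injured ganglia and 2486 for the change, and 176 list members. Depth limits genes with few reads, for which a level near 0 is not shown to be absent.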
